A study of Homo sapiens with 6 samples.

Results

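The ligands, receptors and latent binding proteins of transforming growth factor beta (TGFβ) were followed in 2 ovarian cancer cell lines in which Hic-5 had been silenced or overexpressed. They comprise 10 genes, TGFB1, TGFB2, TGFB3, TGFBR1, TGFBR2, TGFBR3, ENG, LTBP1, LTBP2 and LTBP3, and were taken as every non-control probe that carries one of these gene names in the scanner output, 17 of the 41000 probes on the array. Each array was hybridized with RNA of a modified clone in one dye and RNA of its control, Ctrl, in the other, and a second array of the same RNAs exchanged the dyes. SKOV3, a human ovarian cancer line, gave 4 arrays, 2 for the clone sh-S1 and 2 for the clone sh-S2. Both are puromycin-selected stable clones made with lentiviral shRNAs against Hic-5 in the pLKO.1-puro vector, and their Ctrl is a mock-transduced clone that carries a scramble sequence in that vector. A2780s, another ovarian cancer line, gave 2 arrays of 1 clone with ectopic Hic-5 from the pCMV6 vector (pCMV-Hic-5) against a clone with the empty vector, both selected with neomycin. No treatment with TGFβ1 is named for any of these samples. Each RNA comes from a selected stable clone, so that a difference between clones and an effect of Hic-5 cannot be told apart within 1 clone.

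TGFβ ligands are secreted in a latent form, in which the propeptide keeps the growth factor inactive and a latent binding protein ties it to the extracellular matrix until it is released. The active ligand binds the type II receptor, TGFBR2, which recruits and phosphorylates the type I receptor, TGFBR1, and this in turn activates the SMAD transcription factors. TGFBR3 (betaglycan) and ENG (endoglin) are coreceptors, and in epithelial cancers the pathway is best known for growth arrest and for the epithelial to mesenchymal transition. Hic-5 itself is a focal adhesion protein whose gene, TGFB1I1, was first found as a TGFβ1-induced transcript.

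The shRNAs were directed against the following stretches of the Hic-5 mRNA, which are shown because every SKOV3 comparison rests on them. The labels do not say which of them was used for sh-S1 and which for sh-S2. The capitals mark target bases 14 to 20, which face bases 2 to 8 of the antisense strand.
shRNA target A: cagttcaacatcaCAGATGAa
shRNA target B: cggttgcttcaggAACTTAAt
The 7 capital letters of target A, CAGATGA, were found in 0 of the 17 member probes on either strand, against 0.866% of all probes as printed on the array and 0.754% in reverse complement. The letters of target B, AACTTAA, were likewise in 0 of 17, against 0.498% and 0.456% of all probes. This says only that these letters are not in the probed windows.

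The probes of a gene did not all read the same part of it, and the results below differ between probes of a gene. The sequences of 4 probes of 60 bases are shown for the genes on which the results turn, with their positions in hg19 (GRCh37) as the scanner files give them.
TGFB1 A_24_P79054: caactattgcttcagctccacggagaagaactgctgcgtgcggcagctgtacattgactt
TGFB3 A_24_P373096: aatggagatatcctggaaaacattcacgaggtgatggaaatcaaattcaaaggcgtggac
TGFBR2 A_23_P337242: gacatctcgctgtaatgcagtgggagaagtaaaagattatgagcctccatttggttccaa
LTBP1 A_23_P43810: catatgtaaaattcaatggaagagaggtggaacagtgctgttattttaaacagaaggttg
The TGFB1 probe lies at chr19:41838142-41847802 and spans 9661 bases of the genome, the TGFB3 probe at chr14:76429823-76431982 spans 2160 and the TGFBR2 probe at chr3:30715713-30729909 spans 14197, so each of the 3 crosses at least one intron. The LTBP1 probe lies within 60 bases at chr2:33623836-33623895. The other probes of TGFB3 (A_23_P88404, chr14:76424904-76424963) and TGFBR2 (A_23_P211957, chr3:30735163-30735222) lie further towards the 3′ end of their transcripts, without an intron between.

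Ratios are given on the log2 scale as clone over Ctrl, so that 1 is a doubling. On the SKOV3 arrays the Cy5 channel was dim, with a median signal above background of 9.52 to 25.5 against 373.4 to 530.5 in Cy3. The share of spots well above background was 43.7 to 63.6% in Cy5 and 88.8 to 94.5% in Cy3. The background correction adds an offset of 50 to every signal, which is above the median Cy5 signal and draws the SKOV3 ratios of weak probes towards 0. The A2780s arrays were brighter in Cy5, with 74.3 to 88.0% of spots well above background there. For this reason the clones were also compared with the Ctrl in the Cy3 channel alone, the clone on one array against the Ctrl on the dye-swapped array of the same clone, after quantile normalization. This comparison was chosen after the data were seen, and its values are named as Cy3 values. They carry the same offset of 50, so that Cy3 differences of weak probes are drawn towards 0 as well. Cy3 signals are given without the offset and before normalization. Their array medians in SKOV3 were 504.7 and 530.5 for the Ctrl and 373.4 and 448.3 for the clones. Where readings of the Ctrl and the clones did not overlap, the share of all probes without overlap was not counted. Raw Cy3 signals also did not overlap on member probes that were not called. Among them were ENG, at 346.5 and 364.6 in the Ctrl and 231.6 and 184.6 in the clones, and LTBP2 A_24_P167668. The latter was at 638.5 and 748.7 in the Ctrl and at 565.9 and 579.1 in the clones.

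TGFB1I1 had log2 ratios of -0.16 and 0.12 in sh-S1 and of -0.12 and 0.28 in sh-S2, with the clone in Cy5 and in Cy3, respectively. Their mean of 0.03 did not pass the test (adjusted p = 0.855 by limma), so that no decrease of the targeted gene was detected, and sh-S1 and sh-S2 are used here as labels of RNAs. The paper, in contrast, reports that its SKOV3 knockdown clones were selected by checks of Hic-5 mRNA and protein, by RT-PCR and Western blot. It also describes very low Hic-5 staining in mouse tumours grown from sh-S1 cells. Those data were not analysed here. In pCMV-Hic-5 the log2 ratios of TGFB1I1 were 4.05 and 2.60. The Cy3 signal of TGFB1I1 was 611.3 and 716.6 in the SKOV3 Ctrl, 662.0 in sh-S1 and 472.4 in sh-S2, but 11374 in the A2780s Ctrl. The same A2780s Ctrl RNA read 59618 in Cy5, with normalized log2 levels of 11.96 in Cy3 and 13.80 in Cy5. The other channel of these arrays held pCMV-Hic-5 at 372398 and 235570, and its part in the Ctrl signal was not tested. By Western blot the paper describes Hic-5 protein as rather low in A2780s and strong in SKOV3, the reverse order.

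The RNAs with these labels stood apart from their Ctrl. Across 29443 probes well above background in Cy3 on all 6 arrays, which are not independent replicates, the Cy3 level of sh-S1 correlated with that of the SKOV3 Ctrl at a Pearson's r of 0.926 and 0.927 and with that of the A2780s Ctrl and pCMV-Hic-5 at 0.935 and 0.940. For sh-S2 the values were 0.919 and 0.920 against 0.951 and 0.956. By Spearman's rho, sh-S2 was again nearer to the A2780s RNAs (0.923 and 0.933) than to the SKOV3 Ctrl (0.904 and 0.905), but sh-S1 was not (0.900 and 0.908 against 0.914 and 0.915). The RNA labelled sh-S2 was thus more alike to RNAs hybridized on another slide than to the Ctrl on its own slide by both measures, and sh-S1 by Pearson's r alone. The SKOV3 Ctrl and the A2780s RNAs correlated at a Pearson's r of 0.860 to 0.874. The summed Cy3 signal of 5 epithelial marker genes (KRT7, KRT8, KRT18, EPCAM and CDH1, with KRT19 left out for a flagged spot) was 93867 and 102126 in the SKOV3 Ctrl, 7914 in sh-S1, 10239 in sh-S2, 3902 in the A2780s Ctrl and 5130 in pCMV-Hic-5. Of these, CDH1 was not well above background on either A2780s array in either RNA. KRT18 carried most of the sum in the SKOV3 Ctrl, at 73147 and 66945, and was at 3779 in sh-S1 and 4928 in sh-S2. EPCAM, at 568.0 and 497.6 in the SKOV3 Ctrl, was at 135.4 and 162.4 in the clones, below the 319.4 and 464.6 of the A2780s RNAs. The sum of 6 ovarian carcinoma markers was 65032 and 73407 in the SKOV3 Ctrl, 7920 and 7857 in sh-S1 and sh-S2, and 7664 and 5368 in the A2780s RNAs, with PAX8 alone at 35802 and 40890 in the SKOV3 Ctrl and at 2131 and 2217 in the clones. The sum of 6 fibroblast markers was 2574 and 3184 in the SKOV3 Ctrl, 25934 and 20964 in the clones, and 26192 and 27143 in the A2780s RNAs. COL3A1 carried this difference, at 1832 and 1207 in the SKOV3 Ctrl and 24803 and 19479 in the clones, while COL1A1, at 383.6 and 380.1 against 261.3 and 245.7, was lower in the clones. In the order of Ctrl, clones and A2780s RNAs, 6 endothelial markers summed to 1712 and 1755, to 1370 and 1378, and to 986.2 and 1250 (TIE1 was not well above background anywhere), and 6 leukocyte markers to 4287 and 4468, to 3388 and 3365, and to 2296 and 2548. These differences move with every SKOV3 result given here, their part in it was not tested, and no SKOV3 comparison can be made without these 2 RNAs. In RNA of whole cultures, fewer cells of a kind and less RNA in each cell cannot be told apart.

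In SKOV3, TGFBR2 was lower in both clones and the ligands moved in different directions. Of the 17 member probes, 10 probes of 8 genes passed the filter on dim signals, and 1 of them, a TGFBR2 probe, was called lower, which required an adjusted p of 0.05 or less together with 2-fold, against 4.16% of the 24956 probes tested. None of the 10 was called higher, against 2.98%. At the adjusted p alone, 2 of the 10 were lower, against 16.2% of all probes, and 2 were higher, against 15.6%. These were TGFB2 and TGFBR2 on one side and TGFB1 and TGFB3 on the other. The probes of TGFB3, TGFBR3 and ENG were too dim in the Ctrl on at least 1 array and entered the test only through a clone, so the count of higher probes rests in part on the filter. Both clones were compared with the same Ctrl RNA, whose own spread is therefore in none of the p values, and nothing in the labels says that the clones came from separate cultures, so that their spread may be technical. The TGFBR2 call held without any 1 of the 4 arrays. Without either array that carried the clone in Cy3, no ligand passed at the adjusted p alone. The median log2 ratio of the 10 probes was -0.0014, and that of all probes tested was 0.0017. In Cy3 alone, 16 of the 17 probes passed the filter, of which 3 were called lower, against 5.81% of 38149 probes, and 2 were called higher, against 5.4%. The called probes were those of TGFBR2, TGFB2 and LTBP1 and those of TGFB3 and TGFB1.

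**Figure D1:**
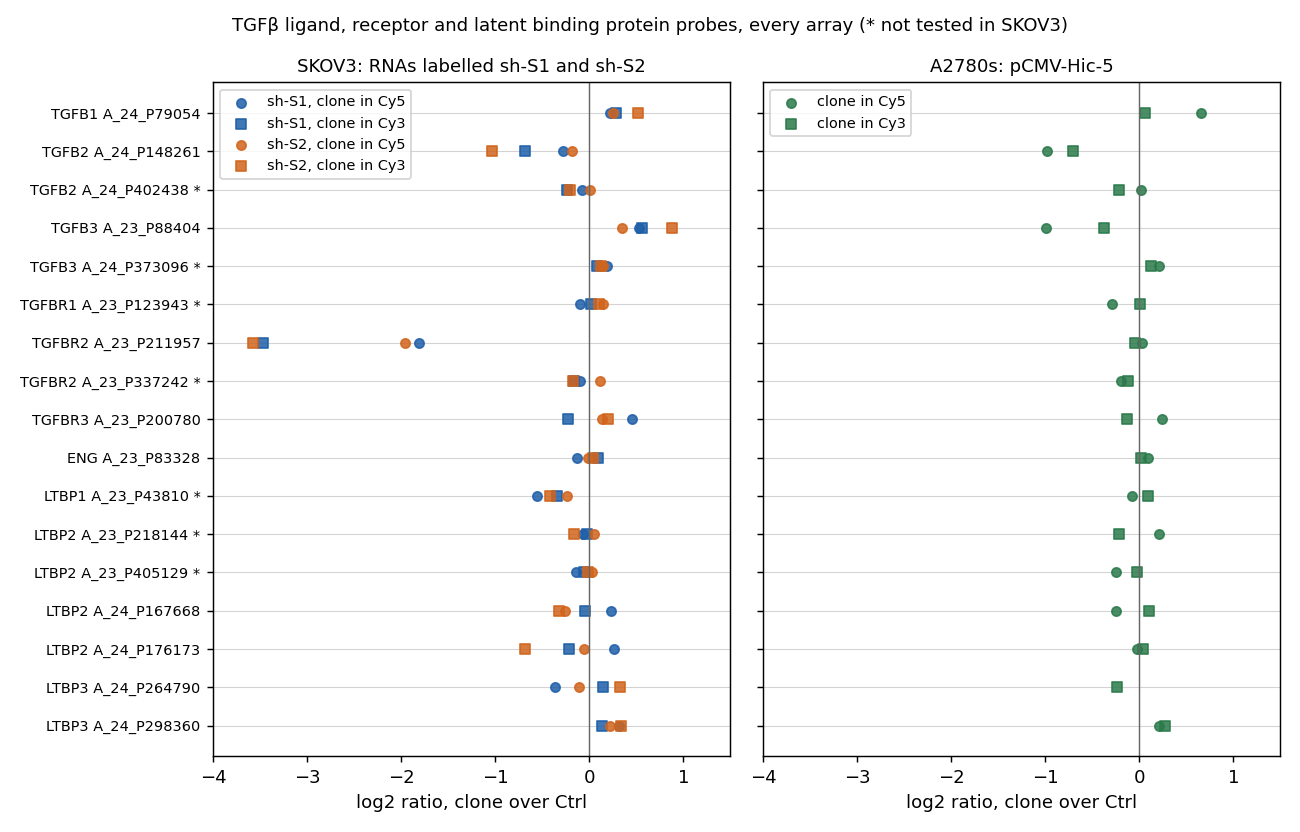
Log2 ratio of clone over Ctrl of all 17 member probes on each array, in SKOV3 (left, 4 arrays) and A2780s (right, 2 arrays). Circles are arrays with the clone in Cy5, squares arrays with the clone in Cy3, and an asterisk marks probes not tested in SKOV3. The TGFBR2 probe A_23_P211957 lies between -1.82 and -3.58 on the SKOV3 arrays and near 0 on the A2780s arrays.

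Among the ligands, TGFB1, the isoform most widely expressed in epithelial tumours, was slightly higher in the clones. Its log2 ratio was 0.22 and 0.28 in sh-S1 and 0.25 and 0.51 in sh-S2, above 0 on 4 of 4 arrays. Averaged over the 2 clones, the ratio was 0.32 (SD 0.09, SE 0.10), and limma gave an adjusted p of 0.0463, short of 2-fold. Leaving out any 1 array raised the adjusted p to between 0.109 and 0.314. TGFB1 is printed 10 times on each array. On the SKOV3 arrays, 8 of 10, 10 of 10, 8 of 8 and 10 of 10 usable spots were above 0, with spot medians of 0.22 to 0.53. In Cy3, the TGFB1 signal was 504.5 and 456.6 in the Ctrl, 648.9 in sh-S1 and 1007 in sh-S2. Across arrays in the dim Cy5 channel the order was the reverse, with a normalized log2 level of 8.37 and 8.39 in the Ctrl against 8.19 in sh-S1 and 8.06 in sh-S2. The Cy3 difference after normalization was 1.00 on the log2 scale (SD 0.32 between the 2 clones, adjusted p = 0.0034 by limma), which lies at the 2-fold limit.

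TGFB2, a ligand that binds TGFBR2 weakly unless TGFBR3 presents it, was lower. On probe A_24_P148261 the log2 ratio was -0.28 and -0.68 in sh-S1 and -0.19 and -1.04 in sh-S2, below 0 on 4 of 4 arrays. The Cy3 signal was 1148 and 1024 in the Ctrl, 282.7 in sh-S1 and 475.0 in sh-S2. Both clones were below both readings of the Ctrl, whereas in Cy5 the normalized log2 levels overlapped, at 8.32 and 8.97 in the Ctrl and 8.67 and 8.61 in the clones. The Cy3 difference was -1.13 (SD 0.41 between the 2 clones, adjusted p = 0.0021 by limma) and was called. Over both dyes the mean of -0.54 (SE 0.10) was short of 2-fold, and its adjusted p by limma rose to 0.152 without the sh-S1 array and to 0.171 without the sh-S2 array on which the clone was in Cy3. The other TGFB2 probe, A_24_P402438, was well above background only in Cy3 and was not tested over both dyes. Its Cy3 signal fell from 206.3 and 184.4 in the Ctrl to 64.8 in sh-S1 and 84.8 in sh-S2, a Cy3 difference of -0.70 (SD 0.23 between the 2 clones, adjusted p = 0.0196 by limma) that was short of 2-fold.

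TGFB3, the third ligand isoform, was higher on the probe towards its 3′ end. The log2 ratio of A_23_P88404 was 0.53 and 0.56 in sh-S1 and 0.35 and 0.88 in sh-S2. Averaged over the 2 clones it was 0.58 (SD 0.05, SE 0.09), with limma's adjusted p at 0.0039, which rose to 0.0585 and 0.0656 without the sh-S1 or the sh-S2 array that had the clone in Cy3. The probe entered this test through the clones, in which it was the higher, since the Ctrl reached that limit on only 3 of its 4 readings. With no filter on any probe the adjusted p by limma was 0.0024. In Cy3 the signal was 234.2 and 362.5 in the Ctrl, 667.9 in sh-S1 and 1025 in sh-S2. Across arrays in the dim Cy5 channel, its normalized log2 level was 8.14 and 8.08 in the Ctrl and 7.70 and 7.90 in the clones, the other way round. The Cy3 difference was 1.67 (SD 0.15 between the 2 clones, adjusted p = 7.8e-05 by limma) and was called. The probe that crosses an intron, A_24_P373096, was not well above background in any RNA on any array and gives no measure of TGFB3.

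Of the receptors, TGFBR2 changed most. On A_23_P211957 the log2 ratio was -1.82 and -3.47 in sh-S1 and -1.96 and -3.58 in sh-S2. The Cy3 signal was 9938 and 9098 in the Ctrl against 680.2 in sh-S1 and 707.4 in sh-S2, and in Cy5 it was 545.8 and 604.1 against 29.9 and 44.3. The clones did not overlap with the Ctrl in either dye, and the log2 ratio of sh-S2 minus that of sh-S1 was -0.13. The mean over both dyes was a 6.53-fold decrease, and the Cy3 value a 10.5-fold decrease (log2 difference -3.39, SD 0.24 between the 2 clones, adjusted p = 6.4e-07 by limma). The A2780s RNAs had Cy3 signals of 129.3 and 123.5 on this probe, below the clones.

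The TGFBR2 probe across an intron, A_23_P337242, did not follow this size. Over both dyes its mean log2 ratio was -0.08, and it was not tested, since it was well above background only in Cy3. The Cy3 signal was 229.8 and 239.5 in the Ctrl, 103.7 in sh-S1 and 88.8 in sh-S2, lower in both clones. The Cy3 difference was -0.66 (SD 0.18 between the 2 clones, adjusted p = 0.024 by limma), short of 2-fold. Both TGFBR2 probes were thus below the Ctrl in Cy3, by amounts that differ several times over, and each is read against itself only, since the signals of different probes are not comparable. The offset weighs more on the dimmer probe, and its part in the gap between the probes was not tested.

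TGFBR1, the type I receptor, did not pass the filter over both dyes. Its log2 ratios were -0.10 and 0.01 in sh-S1 and 0.14 and 0.11 in sh-S2. The Cy3 signals of the clones, 223.8 and 279.8, lay within and just above the 211.9 and 269.9 of the Ctrl, with a Cy3 difference of 0.38 (SD 0.09 between the 2 clones, adjusted p = 0.176 by limma). TGFBR3, the coreceptor that presents TGFB2, had log2 ratios of 0.45 and -0.22 in sh-S1 and of 0.14 and 0.19 in sh-S2, averaging 0.14 (adjusted p = 0.320 by limma). Its Cy3 signals, 232.2 and 353.6 in the Ctrl and 301.5 and 288.4 in the clones, overlapped. ENG, a coreceptor best known from endothelium, had log2 ratios of -0.13 and 0.10 in sh-S1 and of -0.01 and 0.04 in sh-S2 and averaged -0.0025 (adjusted p = 0.988 by limma). In Cy3 its signal was 346.5 and 364.6 in the Ctrl and 231.6 and 184.6 in the clones, a normalized difference of -0.32 that did not pass the test (adjusted p = 0.287 from limma). For these 3 receptors no difference was detected at this signal, which does not show that their levels were equal.

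**Figure D2:**
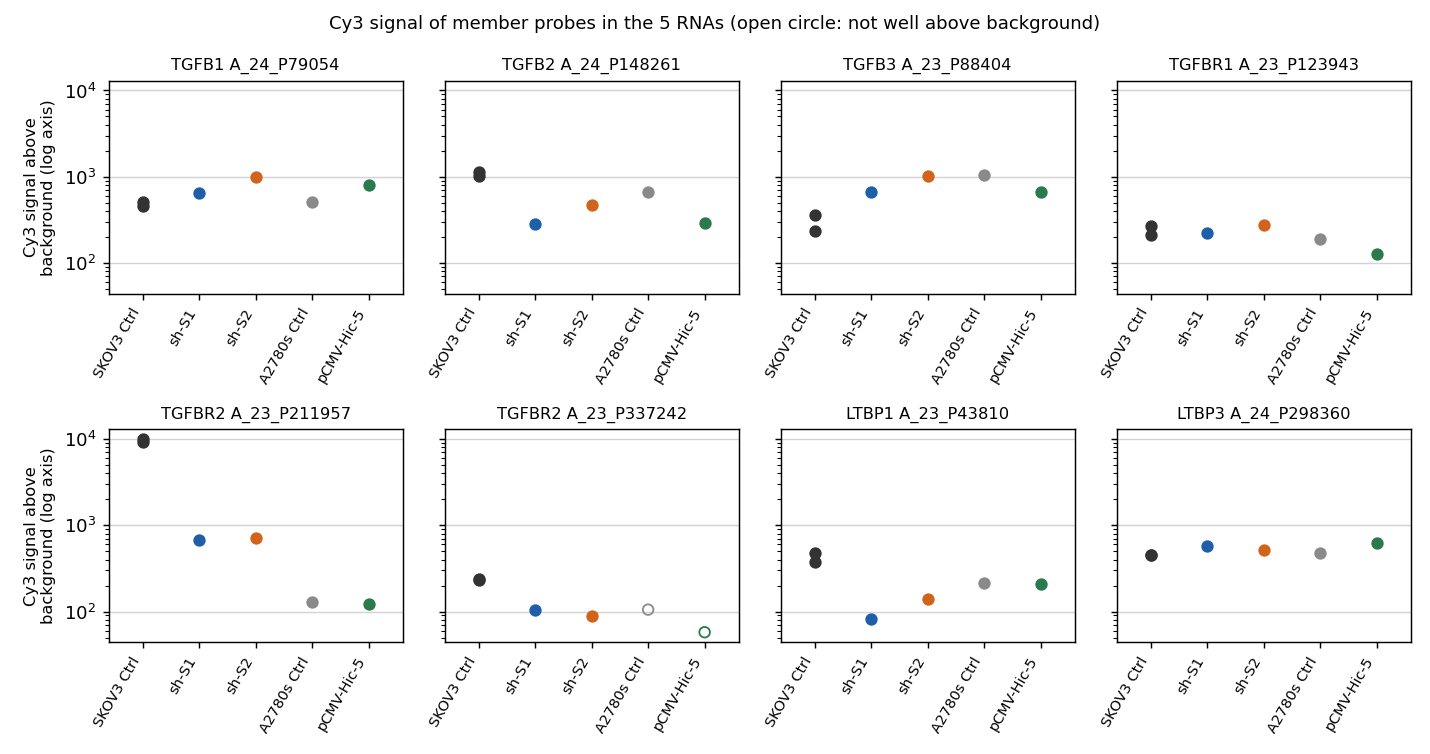
Cy3 signal above background (log axis) of 8 member probes in the SKOV3 Ctrl (2 arrays), sh-S1, sh-S2, the A2780s Ctrl and pCMV-Hic-5 (1 array each). Filled circles are well above background, open circles are not. For TGFBR2 A_23_P211957 the SKOV3 Ctrl lies at 9938 and 9098, the clones at 680.2 and 707.4 and the A2780s RNAs at 129.3 and 123.5.

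Among the latent binding proteins, LTBP1, which anchors the latent complex to fibrillin and fibronectin fibres, was lower in Cy3. Its log2 ratio was -0.55 and -0.34 in sh-S1 and -0.24 and -0.42 in sh-S2, below 0 on 4 of 4 arrays. It was well above background in the clones only in Cy3, and on 3 of 4 arrays in the Ctrl, and was therefore not tested over both dyes. The Cy3 signal was 475.3 and 370.7 in the Ctrl against 81.9 in sh-S1 and 139.8 in sh-S2. The Cy3 difference was -1.27 (SD 0.57 between the 2 clones, adjusted p = 0.0017 by limma), which was called. In Cy5 the normalized log2 level was 6.96 and 7.30 in the Ctrl and 7.42 and 7.39 in the clones, the opposite order, where neither clone was well above background.

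LTBP2, which binds fibrillin but, unlike the other family members, does not carry latent TGFβ, was measured by 4 probes, of which 2 were tested. Their mean log2 ratios were -0.10 on A_24_P167668 and -0.17 on A_24_P176173, with adjusted p values of 0.603 and 0.344 from limma. Over both dyes the difference of sh-S2 minus sh-S1 was -0.38 and -0.39, but in Cy3 alone A_24_P176173 was at -0.0044 in sh-S1 and 0.12 in sh-S2, the other way round. The 2 dimmer probes had means of -0.05 and -0.05. LTBP3, a latent TGFβ carrier that is prominent in bone, had 2 tested probes that did not match. A_24_P298360 was above 0 on 4 of 4 arrays, from 0.14 to 0.33, averaging 0.25 (adjusted p = 0.0856 by limma). The Cy3 difference on this probe was 0.58 (SD 0.26 between the 2 clones, adjusted p = 0.0492 by limma), short of 2-fold, with Cy3 signals of 453.5 and 454.2 in the Ctrl and 581.3 and 516.2 in the clones. A_24_P264790 had ratios of -0.36 and -0.11 with the clone in Cy5 and of 0.15 and 0.32 with the clone in Cy3, so its direction followed the dye.

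**Figure D3:**
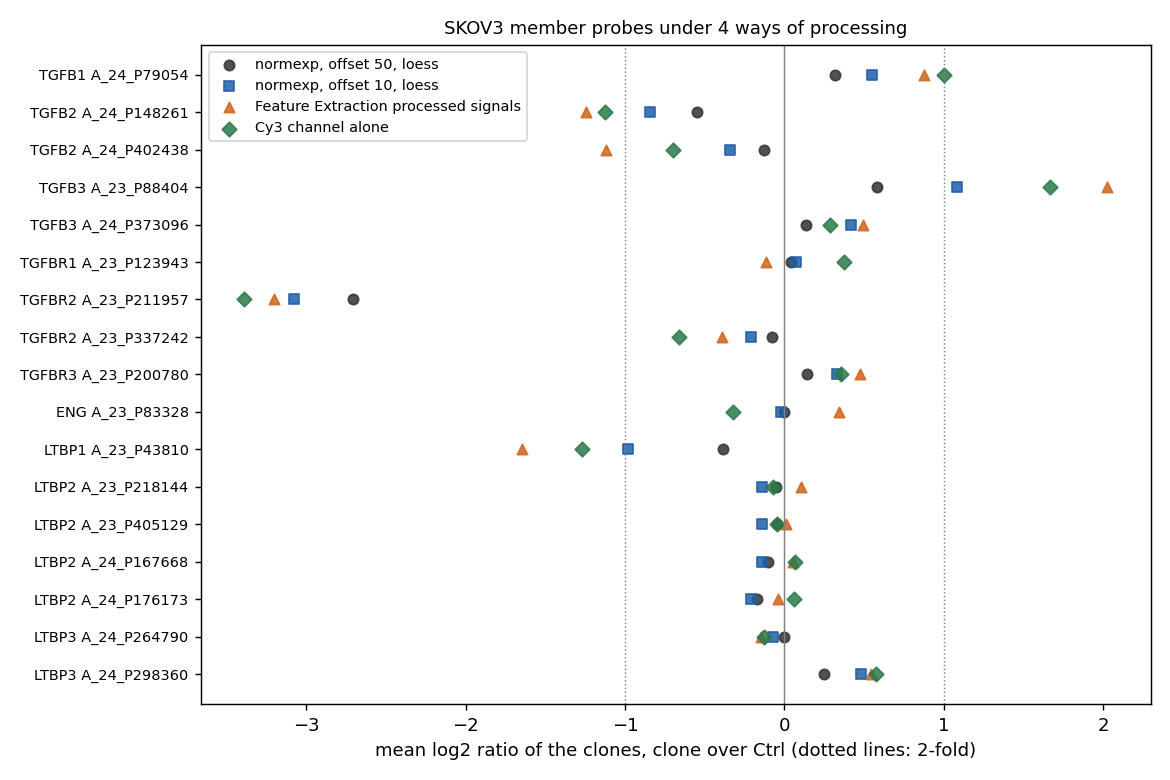
Mean log2 ratio of the SKOV3 clones over Ctrl for each member probe under 4 ways of processing: offset 50, offset 10, the processed signals of Feature Extraction and the Cy3 channel alone, which also carries the offset of 50. Dotted lines mark 2-fold. TGFB3 A_23_P88404 moves from 0.58 to 2.03 and LTBP1 from -0.39 to -1.65, while the TGFBR2 probe A_23_P211957 lies beyond 2-fold under all 4.

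In A2780s, the pCMV-Hic-5 clone had lower TGFB2 and TGFB3 than its Ctrl, and TGFBR2 was dim in both. Here 11 member probes of 9 genes passed the filter, and 2 had a mean of at least 1.5-fold lower with both arrays below 0, against 1.32% of the 30530 probes. None was higher by that rule, against 3.26%. The arrays carry 1 pair of RNAs, so the values have no replicate check and no test. The median log2 ratio was -0.0050 over the 11 probes and -0.0073 over all probes.

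TGFB2 (A_24_P148261) had log2 ratios of -0.99 where the clone was in Cy5 and -0.71 on the dye swap, a mean of -0.85 or a 1.80-fold decrease. Its Cy3 signal was 658.1 in the Ctrl and 291.1 in pCMV-Hic-5. The probe was past 1.5-fold on each of the 2 arrays. TGFB3 (A_23_P88404) had log2 ratios of -0.99 and -0.37, a mean of -0.68 or a 1.61-fold decrease, and it was past 1.5-fold on 1 of the 2 arrays only. Its Cy3 signal was 1056 in the Ctrl and 658.2 in pCMV-Hic-5. TGFB3 was thus lower with ectopic Hic-5 in A2780s and higher in both SKOV3 clones, while TGFB2 was lower in both lines. These are different contrasts on different slides, and the difference between them was not tested.

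TGFB1 had a log2 ratio of 0.66 where the clone was in Cy5 and of 0.06 on the dye swap. The 9 usable spots ranged from 0.53 to 0.79 on the first array and from -0.07 to 0.16 on the second, so the arrays disagreed by more than the spots within an array. TGFBR2 A_23_P211957 had ratios of 0.02 and -0.04, with Cy3 signals of 129.3 in the Ctrl and 123.5 in pCMV-Hic-5. TGFBR1 had ratios of -0.30 and 0.00, and TGFBR3 of 0.24 and -0.13. ENG was well above background on 1 array in each RNA and was not read. LTBP1 had ratios of -0.08 and 0.09. The 3 LTBP2 probes that passed had means of -0.07 to 0.01, although one of them, A_23_P218144, had ratios of 0.21 and -0.22 and a Cy3 difference of -0.71. LTBP3 A_24_P298360 had ratios of 0.21 and 0.27, the only member probe besides TGFB1 above 0 on both arrays among those that passed, and A_24_P264790 was flagged as an outlier on one array and has no mean.

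Between the Ctrl RNAs of the lines, TGFBR2 and TGFB3 stood furthest apart among the members. After loess and Aquantile normalization, the log2 level of TGFBR2 A_23_P211957 was 11.93 in the SKOV3 Ctrl and 7.15 in the A2780s Ctrl, a difference of 4.78 without overlap between arrays. TGFB3 A_23_P88404 was lower in SKOV3, at 7.74 against 9.04, also without overlap. The levels of TGFB1, at 8.14 and 8.48, TGFB2 A_24_P148261, at 8.76 and 8.60, TGFBR1, at 7.33 and 7.34, and LTBP1, at 7.47 and 7.53, overlapped between arrays when the dyes were pooled. Within each dye TGFB1 was lower in the SKOV3 Ctrl. It was at 7.97 and 7.81 against 8.29 in Cy3, and at 8.37 and 8.39 against 8.67 in Cy5. The LTBP2 probes did not match: A_24_P167668 and A_24_P176173 were higher in SKOV3 by 0.74 and 0.80, or by 0.43 and 0.47 in Cy3 alone, while A_23_P218144 was lower there, at -0.44. Each line was on a slide of its own. The slide and the line cannot be told apart, and no test was made. For TGFBR2 A_23_P211957 and TGFB3 A_23_P88404 the normalized Cy3 levels of sh-S1 and sh-S2 lay between those of the SKOV3 Ctrl and the A2780s Ctrl, at 8.64 and 8.26 for TGFBR2 and at 8.70 and 8.96 for TGFB3, against Cy3 levels in the Ctrl RNAs of 11.88 and 7.17 and of 7.36 and 9.24. For LTBP1 the Cy3 levels of the clones, 6.62 and 6.89, were below both Ctrl RNAs, at 7.80 and 7.62.

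Other genes of the pathway were read from the brightest probe of each gene in 4 lists. In SKOV3, 63 of 73 listed genes were tested, of which 11 were called lower and 5 higher, with a median log2 ratio of -0.09. Of all probes tested, 4.16% were called lower and 2.98% higher. These include dim probes, whose ratios the offset draws towards 0, so they are not like for like with the brightest probes. For A2780s, too, the brightest probes are set against all probes below. Of the genes that activate or store latent TGFβ, 15 of 20 were tested, 3 were lower and 1 was higher. The lower genes were THBS1, an activator of latent TGFβ1, at -3.04 on the log2 scale, PLAU, the urokinase that generates plasmin, at -2.77, and ITGB1, the beta chain of several integrins, at -1.85. LTBP4, the remaining latent binding protein, was higher at 1.15, but at 0.57 when its 2 probes were averaged. Of 12 other receptors of the family, 12 were tested and 2 were lower, BAMBI, a pseudoreceptor that blocks TGFβ signalling, at -3.92 and CD109, a TGFβ coreceptor, at -1.67, or -0.86 when its 3 probes were averaged. Of 17 SMADs and cofactors, 14 were tested and 1 was lower, PMEPA1, a SMAD-binding inhibitor that is itself induced by TGFβ, at -3.48.

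Of 24 transcriptional targets of TGFβ, 22 were tested in SKOV3, of which 5 were called lower and 4 higher, with a median of -0.22. Of those lower, TGFBI, named for its induction by TGFβ, had a log2 ratio of -5.01, EDN1, which encodes endothelin-1, one of -3.90, FN1, which encodes fibronectin, one of -3.33 and COL4A1, a basement membrane collagen, one of -1.60. The Cy3 signal of TGFBI was 130729 and 102299 in the Ctrl against 3583 in sh-S1 and 5308 in sh-S2. The genes called higher were ID2 (1.90) and ID3 (1.58), which TGFβ represses in many epithelial cells, SNAI2 (1.26), a transcription factor of the epithelial to mesenchymal transition, and CDKN1A (1.01), the p21 inhibitor of the cell cycle. Averaged over their probes, FN1 was at -2.02 and SNAI2 at 0.76. SNAI1, another factor of this transition, was at -0.96 (adjusted p = 0.00072 by limma), short of 2-fold. Its Cy3 difference of -2.16 was called lower (adjusted p = 1.2e-05 by limma). The Cy3 signals of ID2 and ID3 in the A2780s Ctrl were 20684 and 22036, while TGFBI, FN1 and EDN1 did not pass the filter in A2780s. The marker sums given above differ between the same RNAs, and their part in these values was not tested.

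**Figure D4:**
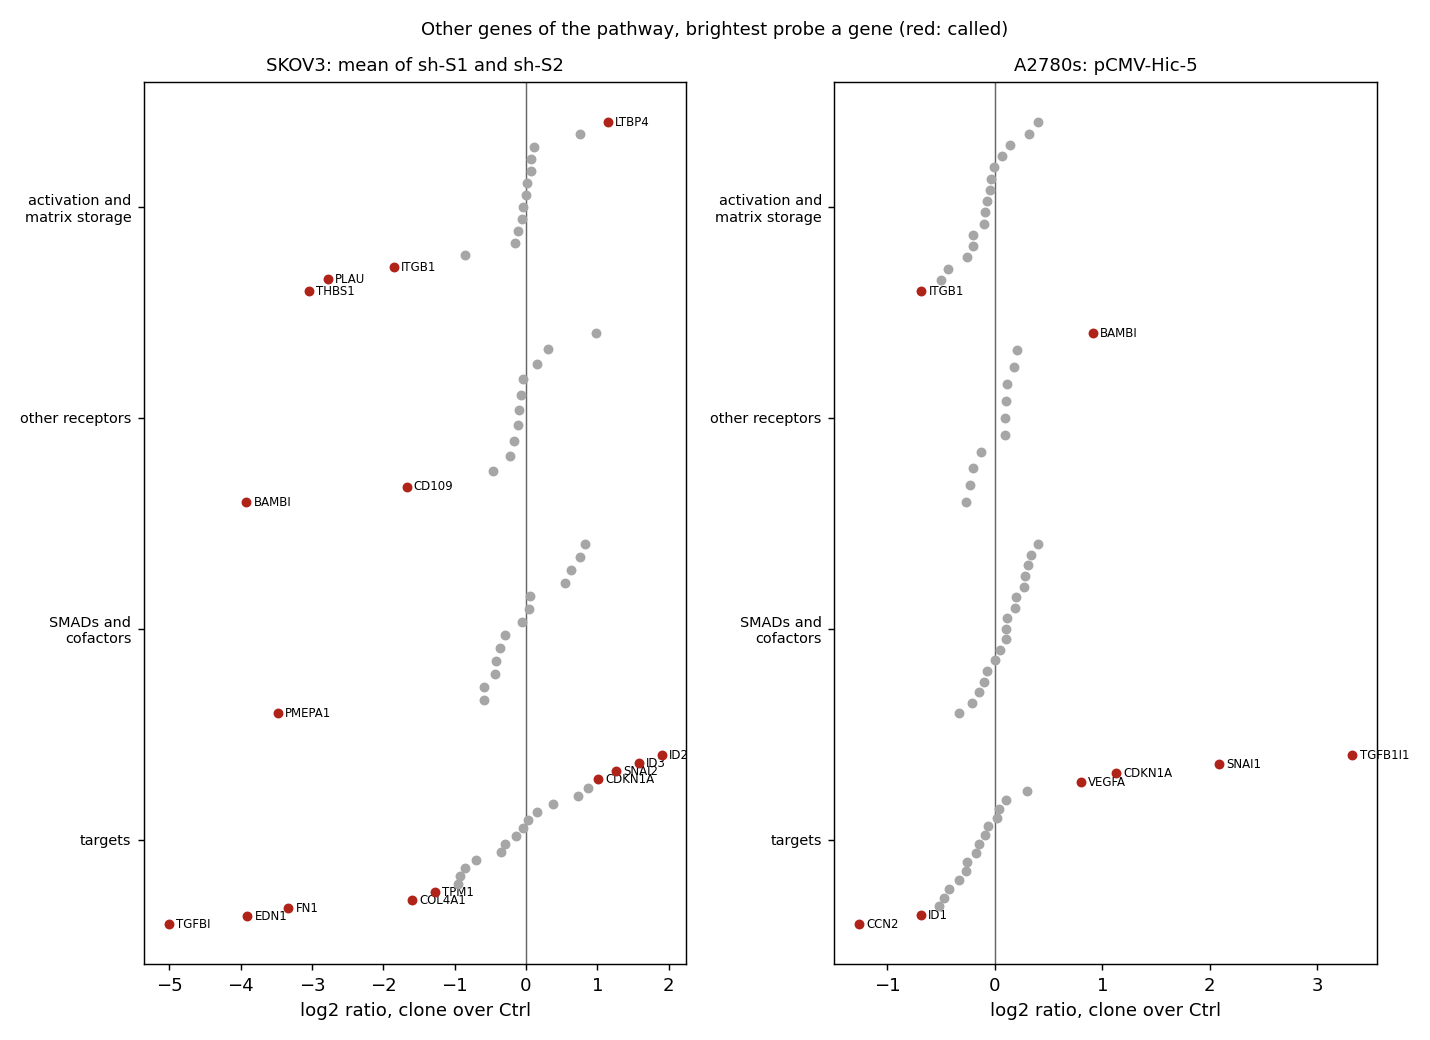
Log2 ratio of clone over Ctrl of the other pathway genes that were measured, by list, in SKOV3 (left, mean of the clones) and A2780s (right, mean of 2 arrays). Each point is the brightest probe of a gene, red points with names were called, and points within a list are ordered by value. In SKOV3 the falls reach -5.01 (TGFBI), and in A2780s the lowest value is that of CCN2, at -1.26.

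In A2780s, 64 of the 73 genes passed the filter, 3 were past 1.5-fold lower and 5 higher, with a median of -0.02, against 1.32% lower and 3.26% higher among all probes. One of those higher was TGFB1I1, the transfected gene, which was on the list of targets. SNAI1, a repressor of CDH1, was higher at 2.09 (2.26 and 1.92 on the arrays), CDKN1A at 1.13 and VEGFA, an angiogenic factor, at 0.80. Averaged over its 4 probes VEGFA was at 0.55, short of 1.5-fold, and its Cy3 difference was 0.11. BAMBI was higher at 0.91, with a Cy3 signal of 115.3 in the Ctrl and 199.3 in pCMV-Hic-5. Its normalized Cy3 difference was 0.55, short of 1.5-fold. CCN2, a matricellular target of TGFβ and YAP that the array names CTGF, was lower at -1.26 (-1.31 and -1.22 on the arrays), ID1, a target of BMP signalling, at -0.69 and ITGB1 at -0.68. Averaged over its 3 probes ITGB1 was at -0.56, short of 1.5-fold. Of 17 SMADs and cofactors, 17 passed the filter and none reached 1.5-fold.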

How the data were processed

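Expression was measured on 6 two-colour Agilent Whole Human Genome arrays, which hold 41000 probes. The authors deposited the spot intensities as Feature Extraction wrote them, without further normalization (version 8.5.1.1 per the submitters' processing notes, 10.7.3.1 per the file headers). The files also hold processed intensities and log10 ratios of Cy5 over Cy3, made by the authors' software. The deposited series values were checked against these log10 ratios and are the same after rounding.

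From the mean intensity and the local background of each spot, normexp with an offset of 50 and loess within each array were run in limma 3.58.1 (R 4.3.3). The normexp fit left out spots flagged as background outliers and 40 spots with a local background over 1000. The loess fit and the averaging of spots left out those 40 spots and 121 to 362 spots an array flagged as feature outliers. Spots of a probe were averaged, and ratios were turned to clone over Ctrl. Dye-swapped arrays of a clone carry the same RNAs and were averaged. In SKOV3 lmFit and eBayes tested the 2 clone means against 0 over 24956 probes, with Benjamini-Hochberg adjustment. A call needed 2-fold and an adjusted p of 0.05 or less. In A2780s, with no replicate, 30530 probes were read against a mean of 1.5-fold with both arrays on one side of 0. A probe entered if it stood well above background in Ctrl throughout the line, or in 1 clone in both dyes. Channel levels were taken after loess and Aquantile normalization. The rules were run on simulated data with independent clones and large true changes only, so that run covers neither the shared Ctrl nor small changes. The members, the gene lists and the rule for naming genes were chosen with earlier results of these data known. The rule names all members by every probe, and of each list the called genes up to the 4 largest in each direction. SNAI1 in SKOV3, the Cy3 values and the offset of 10 were added after the data were seen.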

Additional observations from a re-analysis of the deposited data

How the results depend on the processing

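Of the 10 member probes tested in SKOV3, TGFBR2 A_23_P211957 was called lower under every alternative that was tested, with log2 ratios of -1.89 (clone in Cy5 alone) to -3.52 (clone in Cy3 alone). The count called higher was 0, but 1 with the processed signals, with median centring and with an offset of 10, and 2 in Cy3 alone. Of all 24956 probes, 743 were called higher, but 1971 with the processed signals, 826 with median centring and 1182 with an offset of 10. In Cy3 alone, 2061 of 38149 probes were called higher. The count called lower was 1, but 2 with the processed signals and 3 in Cy3 alone. Over all probes the count lower was 1038, but 2355 with the processed signals and 2215 in Cy3 alone. In A2780s the count higher was 0, but 1 with the clone in Cy5 alone. The count lower was 2, but 1 with the clone in Cy3 alone, 1 with 1.5-fold required on each array and 3 in the Cy3 channel alone. Of all 30530 probes, 994 were higher, but 1795 with the clone in Cy5 alone. Those lower numbered 403, but 1516 with the clone in Cy5 alone, 210 with the clone in Cy3 alone and 123 with 1.5-fold on each array. In the Cy3 channel alone, 3408 of 35039 probes were lower. The pathway genes called higher in SKOV3 numbered 5, but 9 with the processed signals, 8 with an offset of 10, 9 in Cy3 alone, 3 when the probes of a gene were averaged, and 4 to 8 when an array was left out (8 without the sh-S2 array that had the clone in Cy5). Those called lower numbered 11, but 17 with the processed signals and 16 in Cy3 alone. The counts over all probes given above are those of the same settings, with 698 to 897 higher when an array was left out. In A2780s those lower numbered 3, but 9 with the clone in Cy5 alone, 1 with the clone in Cy3 alone, 1 with 1.5-fold on each array and 10 in Cy3 alone. The cause of these changes was not tested.

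Small ratios that were not called changed sign in SKOV3. TGFB1I1 was -0.14 with the clone in Cy5 alone and -0.068 to 0.13 when an array or clone was left out. TGFBR3 was -0.014 with the clone in Cy3 alone and -0.028 to 0.31 when one was left out. ENG was 0.34 with the processed signals, 0.067 with the clone in Cy3 alone and -0.059 to 0.054 when one was left out. LTBP2 A_24_P167668 was 0.056 with the processed signals, 0.068 in Cy3 alone and -0.29 to 0.091 when one was left out. LTBP2 A_24_P176173 was 0.10 with the clone in Cy5 alone, 0.059 in Cy3 alone and -0.37 to 0.023 when one was left out. LTBP3 A_24_P264790 was 0.0020 with median centring, 0.24 with the clone in Cy3 alone and -0.13 to 0.13 when one was left out. The number of arrays limits the precision, and in SKOV3 the dim Cy5 channel does so too. Each ratio already sets a clone against its Ctrl on 1 array. The labels pair the dye-swapped arrays of a clone, which were averaged, and name no other pairing. The replicate numbers used here only name the dye orientation. A slide block could not be fitted, since each line was on 1 slide.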
